A study of Mus musculus with 12 samples.

Results

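The shKdm5c#2 line is a polyclonal line of mouse IB10 embryonic stem cells that carries the second of 2 hairpins against Kdm5c, and it was represented by 4 of the 12 arrays of the study, 1 for each of its cultures A to D. The members were all 4 arrays titled for this hairpin, taken by their labels, and each was read as the line's RNA over the IB10 reference RNA on the same array. The other 8 arrays held 4 cultures of a line with the first hairpin, shKdm5c#1, and 4 of a line with a control hairpin, control-sh. IB10 is a subclone of the male E14 stem cell line. Per the labels, lentiviral pLKO-puro vectors made in Cos7 cells carried the hairpins, puromycin selection began 24 h after the last infection, and each line was the pool of the colonies that survived, so a line is not 1 clone but also not several independent lines. Culture was on gelatin, with serum and LIF. The reference on every array was RNA of untreated IB10 cells that had met neither virus nor puromycin, named as the same preparation throughout, so the comparison with IB10 also holds whatever infection, selection and time in culture did. The dyes were swapped between cultures, the line's RNA being labelled with Cy3 for A and C and with Cy5 for B and D.

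Kdm5c, also called Jarid1c or Smcx, is an X-linked enzyme that removes methyl groups from lysine 4 of histone H3, a mark of active promoters in its trimethylated form and of enhancers in its monomethylated form. It is known for keeping germ-line genes silent in other tissues and is mutated in a form of X-linked intellectual disability. Mouse embryonic stem cells in serum and LIF move between a naive state, held by factors such as Nanog, Klf4, Esrrb and Tbx3, and a state closer to the primed epiblast, marked by Fgf5, Otx2 and Dnmt3b, and some cells in such cultures begin to make primitive streak genes such as T. These cultures can also hold a few cells on their way to extraembryonic endoderm or trophectoderm.

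Gene values are log2 of the line over IB10 with the dye effect removed by the model, each with its standard error (SE) over the 4 cultures as fitted on all 12 arrays, and p-values are limma's, adjusted by Benjamini-Hochberg over all 18322 genes with 0.05 as the threshold for a call. Values of single arrays still hold the dye effect, which alternates between A and C on one side and B and D on the other. Between 84.4 and 96.3 percent of gene spots stood above background in the sample channel of the shKdm5c#2 arrays, and the median SE was 0.028. As measured, cultures of opposite dye order correlated at r = 0.233 to 0.312 over genes, A with C at 0.839 and B with D at 0.618. With dye effects removed, as estimated from these same arrays, the cultures correlated at r = 0.508 to 0.822, lowest between B and D. Culture D had the largest residual SD of the 12 arrays, 0.0836 against 0.0455 to 0.0642 on the others. Because 1 reference RNA served every array, its own spread is not in any p-value, and the p-values measure only the spread between cultures of 1 line per hairpin. The arrays measure total RNA of a culture, so fewer cells of a type and less RNA per cell cannot be told apart in any result below.

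Kdm5c stood at -0.69, -0.62, -0.75 and -0.65 over IB10 on the shKdm5c#2 arrays A to D, at -0.62, -0.42, -0.81 and -0.63 on the shKdm5c#1 arrays and at -0.01, 0.09, -0.01 and 0.00 on the control-sh arrays. Both hairpin lines lay below every control-sh array and overlapped each other. In the shKdm5c#2 line Kdm5c fell to 62.6 percent of IB10, a log2 of -0.68 (SE 0.04, n = 4, 95% interval -0.75 to -0.60, adjusted p = 5.04e-10). Its other probes on the array differed, with -0.93 (SE 0.04) or 52.3 percent of IB10 by one and -0.02 (SE 0.03) by the dimmest, which was not called. Of the 7 other histone demethylases listed with Kdm5c, Kdm5a stood at 0.12, Kdm5b at -0.14 and Kdm1a at -0.13, all called. Each of these 3 calls was lost in 5 to 7 of the other settings tried. Kdm5d, the Y-linked copy, stood at -0.12, Kdm1b at 0.07, Kdm2a at -0.02 and Kdm2b at -0.00 in the shKdm5c#2 line, none of them called. Kdm5d had a large dye effect of 0.97, with -0.55, 0.51, -0.48 and 0.04 on the shKdm5c#2 arrays A to D. The probes of Kdm2a differed, as 1 of the 5 dimmer ones was called higher at 0.51 (SE 0.04).

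Over all genes, 4810 of 18322 differed between the shKdm5c#2 line and IB10, which is 26.3% of those tested. Of these, 2083 (11.4%) were higher and 2727 (14.9%) lower in the shKdm5c#2 line. Most of the differences were small: 97 genes (0.529%) also passed 1.5-fold, 13 of them higher (0.071%) and 84 lower (0.458%). At 2-fold 15 passed (0.0819%), of which 1, Cyp26a1, was higher (0.00546%) and 14 were lower (0.0764%). The shKdm5c#1 line differed from the same reference in 4958 genes (27.1%, with 12.5% higher and 14.5% lower) and the control-sh line in 4816 (26.3%, with 12.6% higher and 13.7% lower), so the line with the hairpin that the labels call non-targeting was as many calls away from IB10 as the shKdm5c#2 line. When the lines were compared with each other, 4074 genes (22.2%) differed between shKdm5c#2 and control-sh, 9.96% of all genes being higher in shKdm5c#2 and 12.3% lower, and 3404 (18.6%) between shKdm5c#2 and shKdm5c#1. Of the 13 genes that passed 1.5-fold upwards, 11 were also called higher than in control-sh, Irak3 was not called different from it, and Plagl1 was further from IB10 in control-sh. Of the 84 that passed it downwards, 75 were also called lower than in control-sh, 8 were not called different from it and 1 was further from IB10 in control-sh. All these genes were chosen for their distance from IB10 in the shKdm5c#2 line. The same shKdm5c#2 values enter the difference from control-sh, so the counts are a description.

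**Figure D1:**
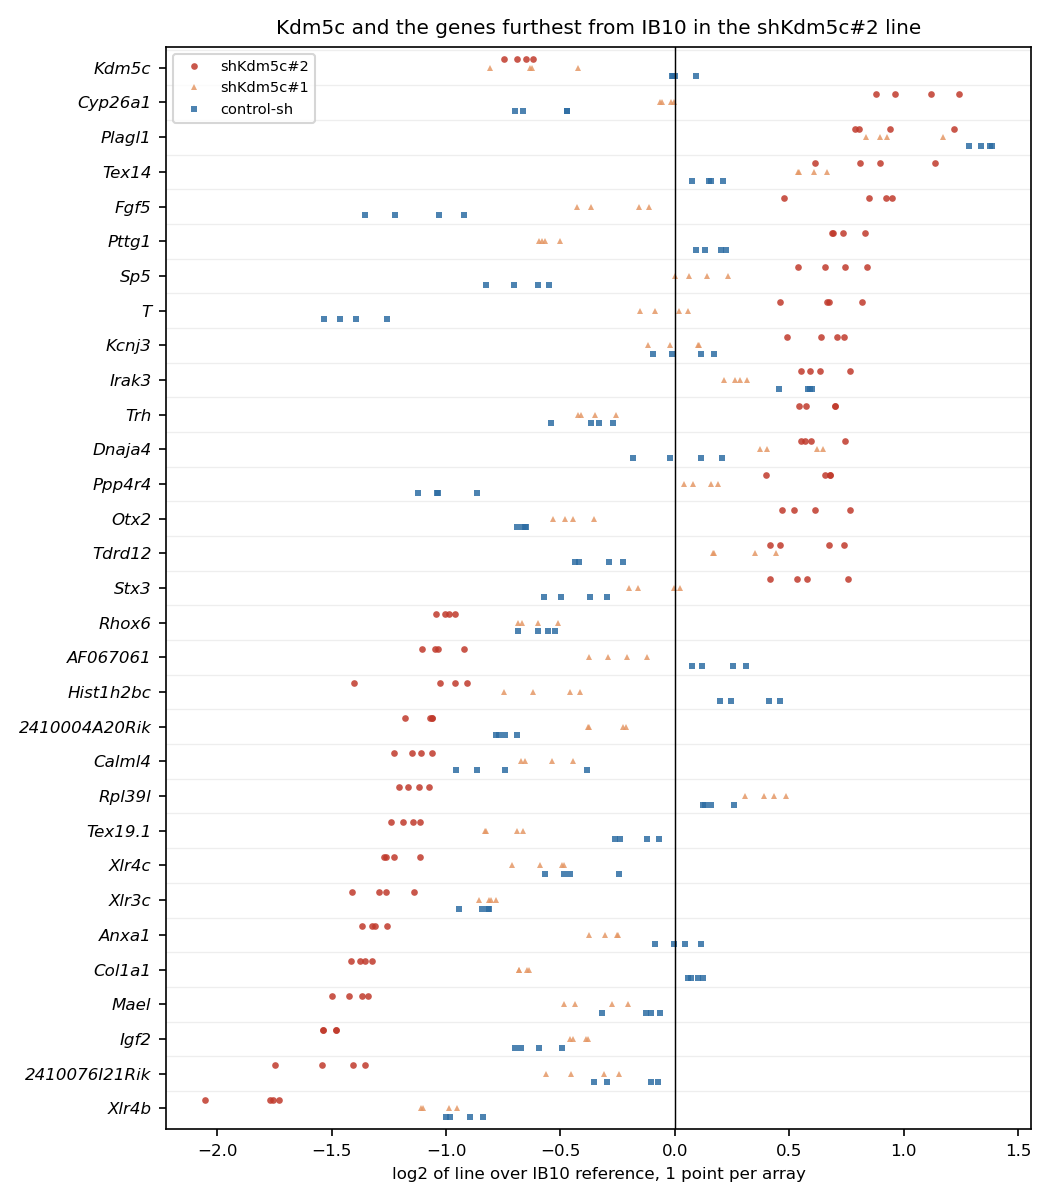
Log2 of each line over the IB10 reference for Kdm5c, the 15 highest and the 15 lowest genes of the shKdm5c#2 line, with 1 point per array (shKdm5c#2 circles, shKdm5c#1 triangles, control-sh squares) and a line at 0 for equality with IB10. The shKdm5c#2 points run from 1.24 for Cyp26a1 to -2.05 for Xlr4b, and for 13 of the 15 highest genes they all lie above the control-sh points, with Irak3 overlapping and Plagl1 below. The genes were picked by these same shKdm5c#2 values, and 16.9% of all genes did not overlap control-sh in either direction.

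The genes that rose most in the shKdm5c#2 line were led by Cyp26a1, the enzyme that breaks down retinoic acid, and held several genes of the primed epiblast and primitive streak. Cyp26a1 stood at 0.96, 1.12, 1.24 and 0.88 on the shKdm5c#2 arrays, against -0.02, -0.06, -0.06 and -0.01 on the shKdm5c#1 arrays and -0.47, -0.67, -0.47 and -0.70 on the control-sh arrays. Every shKdm5c#2 array was above 0 and every array of both other lines was below it. The rise over IB10 was 2.07-fold (log2 1.05, SE 0.04, adjusted p = 2.68e-11), and a dimmer probe of the same gene gave 0.72. Fgf5, a growth factor of the primed epiblast, stood at 0.92, 0.48, 0.95 and 0.85 on the shKdm5c#2 arrays, against -0.11, -0.43, -0.15 and -0.37 on the shKdm5c#1 arrays and -1.03, -1.36, -0.92 and -1.22 on the control-sh arrays. Fgf5 was thus 1.74-fold above IB10 in the shKdm5c#2 line (log2 0.80, SE 0.04, adjusted p = 5.94e-10), while the control-sh line was below IB10 by -1.13. Otx2, a homeodomain factor of the epiblast and forebrain, stood at 0.61, 0.47, 0.77 and 0.52 on the shKdm5c#2 arrays, against -0.35 to -0.53 on the shKdm5c#1 arrays and -0.65 to -0.69 on the control-sh arrays, with no overlap between the lines.

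T (Brachyury), the T-box factor of the primitive streak, stood at 0.66, 0.46, 0.67 and 0.82 on the shKdm5c#2 arrays, against -0.09, -0.15, 0.06 and 0.02 on the shKdm5c#1 arrays and -1.40, -1.53, -1.26 and -1.47 on the control-sh arrays. The 3 lines formed 3 separate levels, with shKdm5c#1 near IB10. The rise of T over IB10 in the shKdm5c#2 line was 1.57-fold (log2 0.65, SE 0.05, adjusted p = 2.23e-08), and the difference from control-sh was 2.07 (adjusted p = 1.5e-12). Sp5, a Wnt target in the streak, rose 1.62-fold over IB10 (log2 0.70, SE 0.03), and Eomes, another T-box factor of the streak, by 0.40 (SE 0.04). Of the 19 primed epiblast markers measured, 9 were higher than IB10 in the shKdm5c#2 line and 2 lower, with a median of 0.094 against -0.0058 over all genes tested. Over all genes 11.4% were higher and 14.9% lower, and the list counts here and below stand beside those shares. Of the 27 genes of streak and mesoderm, 11 were higher and 3 lower, with a median of 0.041. Control-sh showed the opposite balance against the same reference, with 1 higher and 11 lower among the epiblast markers and 1 higher and 12 lower among the streak genes.

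Among the other epiblast markers, Fst, a binding protein that blocks activin, was at 0.39 (SE 0.03), Zic2, a zinc finger factor, at 0.31 (SE 0.02) and Dnmt3b, a de novo DNA methyltransferase, at 0.28 (SE 0.02), all higher than IB10 in the shKdm5c#2 line. The call for Dnmt3b was lost in 1 of the other settings tried. The median of the epiblast list ran from 0.064 to 0.19 over the shKdm5c#2 arrays, from -0.22 to -0.14 over the shKdm5c#1 arrays and from -0.17 to -0.086 over the control-sh arrays. Not every streak gene was higher: Kdr, the receptor for vascular endothelial growth factor that marks later mesoderm, fell in the shKdm5c#2 line by 0.58 (SE 0.03, adjusted p = 1.71e-09) and stood at -0.39 in the shKdm5c#1 line and 0.09 in control-sh. The Wnt feedback list had 5 higher and 4 lower of 15, with Axin2, a scaffold of the complex that degrades beta-catenin, at 0.33 (SE 0.04) above IB10. With median centring 2 were higher and 0 lower. Median centring in place of the loess correction cut the calls over all genes from 4810 to 1204. Of these, 460 were higher and 744 lower, and list counts with median centring stand beside those totals.

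The remaining genes among the 15 highest had varied roles. Plagl1, an imprinted zinc finger gene, stood at 0.79, 0.81, 0.94 and 1.22 on the shKdm5c#2 arrays, against 0.90, 0.93, 0.84 and 1.17 on the shKdm5c#1 arrays and 1.29, 1.38, 1.34 and 1.38 on the control-sh arrays. It was 1.92-fold above IB10 in the shKdm5c#2 line, overlapped shKdm5c#1 and was lower than in control-sh by -0.41 (adjusted p = 4.6e-04), but its dimmer probe gave 0.08 and was not called. Pttg1, which codes for securin, the inhibitor of sister chromatid separation, stood at 0.69, 0.83, 0.69 and 0.74 on the shKdm5c#2 arrays, against -0.57, -0.58, -0.59 and -0.50 on the shKdm5c#1 arrays and 0.13, 0.20, 0.09 and 0.22 on the control-sh arrays. The hairpin lines thus lay on opposite sides of IB10 for Pttg1, with a difference of 1.30 between them (adjusted p = 7.07e-13). Tex14, needed for the bridges between male germ cells, was 1.82-fold higher than IB10 and Tdrd12, a tudor protein of the piRNA pathway, 1.49-fold higher. Kcnj3, a potassium channel subunit, Trh, the thyrotropin-releasing hormone, Dnaja4, a heat shock co-chaperone, Irak3, an inhibitor of Toll-like receptor signalling, Ppp4r4, a regulatory subunit of a phosphatase, and Stx3, a syntaxin of membrane fusion, rose 1.49-fold to 1.56-fold. Dimmer probes did not always follow: Dnaja4 gave -0.04, Kcnj3 0.02 and Stx3 -0.04 and 0.01, none called, and Tex14 gave 0.16, called, and 0.05, not called.

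Germ-cell genes were prominent among those that fell. Mael, a protein of the piRNA pathway that silences transposons in germ cells, stood at -1.37, -1.50, -1.34 and -1.42 on the shKdm5c#2 arrays, against -0.21, -0.44, -0.27 and -0.49 on the shKdm5c#1 arrays and -0.10, -0.32, -0.07 and -0.12 on the control-sh arrays. All shKdm5c#2 arrays lay far below both other lines. Mael fell to 37.7 percent of IB10 (log2 -1.41, SE 0.03, adjusted p = 1.03e-14), whereas its dimmer probe gave 0.04 and was not called. Ddx4, the RNA helicase also called Vasa, stood at -0.94, -0.97, -0.83 and -0.93 on the shKdm5c#2 arrays, against -0.35, -0.48, -0.46 and -0.48 on the shKdm5c#1 arrays and 0.21, 0.11, 0.21 and 0.15 on the control-sh arrays. For Ddx4 the 3 lines again formed separate levels, with control-sh the only one above IB10. Stk31, a tudor domain protein of the testis, fell to 56.1 percent of IB10 and Tdrkh, which binds PIWI proteins, to 59.7 percent, although 1 other Tdrkh probe was called the other way at 0.10.

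Of the 39 germ-cell and meiosis genes measured, 21 were lower than IB10 in the shKdm5c#2 line and 6 higher, with a median of -0.14. Thus 69.2 percent of the list was called, against 26.3 percent of all genes. In control-sh 8 were lower and 8 higher, and in shKdm5c#1 15 were lower and 9 higher. The list median ran from -0.15 to -0.089 over the shKdm5c#2 arrays, from -0.046 to -0.026 over the shKdm5c#1 arrays and from -0.0089 to 0.026 over the control-sh arrays. Against control-sh itself, 19 members were lower in the shKdm5c#2 line and 6 higher. Tdrd12, already given, and Syce2, a synaptonemal complex protein at 0.51 that was picked after its value was seen, show that members of the same list were also called higher. Rpl39l, the testis-enriched paralog of the ribosomal protein gene Rpl39, stood at -1.12, -1.07, -1.17 and -1.21 on the shKdm5c#2 arrays, against 0.43, 0.31, 0.49 and 0.39 on the shKdm5c#1 arrays and 0.26, 0.12, 0.16 and 0.13 on the control-sh arrays. Both other lines lay above IB10 for it and the shKdm5c#2 line far below. Tex19.1, a testis-expressed gene that restrains retrotransposons and stood outside the list, fell to 44.4 percent of IB10. Tex14, the male germ-cell gene given above, also stood outside the list and went the other way, at 1.82-fold above IB10.

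Many promoters of germ-line genes carry an E-box, CACGTG, which is bound by factors such as Max with Mga, or an E2F motif, TCCCGC, bound by E2f6. Promoters here are the 250 bases before and 50 after each start in the RefSeq annotation of GRCm38.p6, and both strands were searched. CACGTG, which reads the same on both strands, was present in 15 of the 32 germ-cell list members with a promoter sequence and in 11 of the 19 such members called lower, against 7.15 percent of all 32851 promoters. TCCCGC was present in 12 of the 32 and in 7 of the 19, against 6562 of the 32851 promoters. Counted by gene, since a gene can have several promoters, CACGTG was present in at least 1 promoter of 8.09 percent of the 27025 genes with one and TCCCGC in 22 percent. The sequences of 4 genes called lower that hold CACGTG are shown because these are members on which the germ-cell result turns, Hormad1, a meiotic chromosome axis protein at -0.73, having been picked after its values were seen. The capitals mark CACGTG, with its first base at -223 from the start in Mael, -29 in Ddx4 and -55 in Stk31, and with 2 matches in Hormad1.
Mael, chr1:166238695-166238994, minus strand: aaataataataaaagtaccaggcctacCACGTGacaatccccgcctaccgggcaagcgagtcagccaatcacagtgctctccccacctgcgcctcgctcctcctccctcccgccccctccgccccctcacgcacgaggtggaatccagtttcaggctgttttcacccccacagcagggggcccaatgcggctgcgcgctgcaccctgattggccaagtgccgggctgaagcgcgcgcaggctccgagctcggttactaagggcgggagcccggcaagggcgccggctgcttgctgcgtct
Ddx4, chr13:112652261-112652560, minus strand: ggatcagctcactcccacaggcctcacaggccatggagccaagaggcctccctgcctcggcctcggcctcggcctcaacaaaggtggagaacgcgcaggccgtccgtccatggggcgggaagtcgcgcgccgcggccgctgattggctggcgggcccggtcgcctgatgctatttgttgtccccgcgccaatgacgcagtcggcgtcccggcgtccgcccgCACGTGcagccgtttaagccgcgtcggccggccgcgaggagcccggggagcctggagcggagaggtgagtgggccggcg
Stk31, chr6:49395289-49395588, plus strand: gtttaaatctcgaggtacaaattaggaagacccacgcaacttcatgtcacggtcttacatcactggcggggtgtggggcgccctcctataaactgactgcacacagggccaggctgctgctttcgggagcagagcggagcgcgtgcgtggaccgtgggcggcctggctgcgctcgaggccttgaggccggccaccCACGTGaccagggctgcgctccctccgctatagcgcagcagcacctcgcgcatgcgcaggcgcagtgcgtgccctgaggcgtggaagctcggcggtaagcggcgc
Hormad1, chr3:95559427-95559726, plus strand: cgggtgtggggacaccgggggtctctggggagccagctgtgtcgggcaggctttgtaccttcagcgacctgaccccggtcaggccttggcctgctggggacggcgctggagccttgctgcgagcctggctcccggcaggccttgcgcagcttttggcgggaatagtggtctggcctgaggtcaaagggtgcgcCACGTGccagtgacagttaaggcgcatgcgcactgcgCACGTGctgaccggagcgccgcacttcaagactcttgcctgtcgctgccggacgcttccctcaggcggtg
These matches are descriptions of the sequence, and no binding was measured.

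The 2-cell-stage genes mark a rare state of stem cell cultures. Of the 5 measured, 3 were called lower than IB10 in the shKdm5c#2 line and 0 higher, with a median of -0.21. Zscan4c, a zinc finger gene of that stage, stood at -0.52, -0.48, -0.50 and -0.40 on the shKdm5c#2 arrays, against -0.11, 0.04, -0.03 and -0.05 on the shKdm5c#1 arrays and 0.08, 0.18, 0.12 and 0.15 on the control-sh arrays. A dimmer Zscan4c probe gave -1.31, or 40.2 percent of IB10, against 71.9 percent by the brighter one. Zscan4f was at -0.37 and Dub1, a deubiquitinase gene, at -0.21 in the shKdm5c#2 line. Genes of the Zscan4 cluster are near-identical copies, so their probes may not separate them. Stra8, the retinoic acid-induced gene of meiotic entry, fell to 61.3 percent of IB10 in the shKdm5c#2 line, with -0.82, -0.69, -0.64 and -0.67 on its arrays, against -0.02, -0.02, 0.02 and -0.00 on the shKdm5c#1 arrays and 0.84, 0.85, 0.82 and 0.77 on the control-sh arrays. Stra8 and Cyp26a1 are both known to respond to retinoic acid, and they stood on opposite sides of IB10 in the shKdm5c#2 line. Of the 18 genes of the retinoic acid list, 2 were higher and 5 lower, so 38.9 percent were called, against 26.3 percent of all genes.

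The gene furthest from IB10 was Xlr4b, of an X-linked cluster of lymphoid and germ-cell genes, at -1.77, -1.76, -1.73 and -2.05 on the shKdm5c#2 arrays, against -0.99, -1.11, -0.95 and -1.10 on the shKdm5c#1 arrays and between -0.84 and -0.90 on A and C and lower still on B and D of the control-sh arrays. All 12 arrays were below IB10, and the shKdm5c#2 line was the lowest, at 28.2 percent of IB10 (log2 -1.83, SE 0.03, adjusted p = 2.16e-15). A dimmer Xlr4b probe gave -0.01 and was not called. Its neighbours Xlr3c and Xlr4c, at -1.28 and -1.22, were also lowest in the shKdm5c#2 line, though these genes are similar in sequence and their probes may share RNA. Rhox6, an X-linked homeobox gene of placenta and germ cells, fell to 50.03 percent of IB10, and it too was below IB10 in shKdm5c#1 (-0.62) and in control-sh (-0.59).

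Igf2, the imprinted insulin-like growth factor, stood at -1.48, -1.54, -1.54 and -1.48 on the shKdm5c#2 arrays, against -0.38, -0.45, -0.39 and -0.46 on the shKdm5c#1 arrays and -0.60, -0.67, -0.49 and -0.70 on the control-sh arrays. The 4 shKdm5c#2 cultures had an SD of 0.034 and lay below both other lines, at 35.1 percent of IB10 (log2 -1.51, SE 0.03, adjusted p = 1.23e-15). Imprinted genes had no common direction, with 13 of the 33 measured called higher and 9 lower and a median of -0.015, and 5 higher and 4 lower with median centring. Cdkn1c, an inhibitor of cyclin-dependent kinases, was lower at -0.54 (SE 0.03), while Snrpn, a splicing protein, at 0.47 (SE 0.04) and Sgce, a sarcoglycan, at 0.45 (SE 0.03) were higher. H19, the RNA of the same imprinted domain as Igf2, stood at -0.05 and was not called, and was named after its value was seen.

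Col1a1, a chain of type I collagen, stood at -1.32, -1.38, -1.42 and -1.36 on the shKdm5c#2 arrays, against -0.68, -0.64, -0.65 and -0.68 on the shKdm5c#1 arrays and 0.12, 0.06, 0.07 and 0.10 on the control-sh arrays. The lines did not overlap, and in the shKdm5c#2 line Col1a1 fell to 38.7 percent of IB10 (log2 -1.37, SE 0.02, adjusted p = 1.20e-15). Its dimmer probes gave -0.26, called, and -0.06, not called. Anxa1, a calcium-dependent lipid-binding protein, fell to 40.2 percent of IB10 in the shKdm5c#2 line, against -0.30 in shKdm5c#1 and 0.02 in control-sh. The other genes among the 15 lowest were 2410076I21Rik, 2410004A20Rik and AF067061, whose products are not well described, Calml4, a calmodulin-like protein, and the histone gene Hist1h2bc, at 35.0 to 49.1 percent of IB10. A further probe of 2410076I21Rik gave -1.08 and one of AF067061 gave -0.26, both called, as was one of Rpl39l at -0.39.

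The label of the cells was checked on stem cell markers. Pou5f1, the factor at the centre of the pluripotency network, stood at -0.03 (SE 0.03, 95% interval -0.09 to 0.03) in the shKdm5c#2 line over IB10 and Sox2, its partner, at 0.06 (SE 0.03), with neither called. Both were above background in both channels on all 4 arrays, as were the stem cell genes Zfp42 and Tdgf1, at 0.05 and -0.04 and not called. Zfp42 swung with the dye, at -0.51, 0.63, -0.37 and 0.46 on the shKdm5c#2 arrays A to D. Nanog stood at -0.46, -0.09, -0.24 and -0.27 on the shKdm5c#2 arrays, against -0.06, -0.04, -0.29 and -0.02 on the shKdm5c#1 arrays and 0.02, 0.31, 0.06 and 0.05 on the control-sh arrays. It was called lower at -0.26 (SE 0.05, adjusted p = 2.88e-04), a call lost in 2 of the other settings, and Esrrb at -0.19 was lost in 4. Dppa5a had the large dye effect of 1.16 and turned from -0.29 to 0.275 with the Cy5 samples alone, so no direction is given for it.

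Of the 16 naive pluripotency factors measured, 10 were lower than IB10 in the shKdm5c#2 line and 1 higher, with a median of -0.17, against 4 lower and 6 higher in control-sh and 2 lower and 10 higher in shKdm5c#1. With arrays centred on their median in place of the loess correction, 3 were lower and 1 higher. Tbx3, a T-box factor that supports self-renewal, stood at -0.53, -0.45, -0.42 and -0.42 on the shKdm5c#2 arrays, against 0.58, 0.64, 0.60 and 0.66 on the shKdm5c#1 arrays and 0.38, 0.50, 0.40 and 0.44 on the control-sh arrays. The shKdm5c#2 line was the only one below IB10 for Tbx3, at 73.0 percent of it (adjusted p = 3.88e-10). Nr0b1, a nuclear receptor that binds Pou5f1, stood at -0.46 (SE 0.03) and Pecam1, an adhesion molecule of stem cells, at -0.26 (SE 0.03), both lower, while Nr5a2, a nuclear receptor that can replace Pou5f1 in reprogramming, was the 1 member called higher, at 0.39 (SE 0.03).

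LIF, Nodal and BMP are signals that act on the pluripotency network. Of 18 genes of the LIF and Stat3 pathway, 9 were lower and 0 higher, led by Klf4, a Krüppel-like factor downstream of Stat3, at -0.23 (SE 0.02). These 9 calls fell to 0 with median centring and to 2 with the Cy5 samples alone. Over all genes the calls fell from 4810 to 1204 and to 2502 in these settings. Of 15 Nodal and Lefty pathway genes, 9 were lower and 2 higher, with Lefty1, a secreted inhibitor of Nodal, at -0.75, -0.48, -0.41 and -0.40 on the shKdm5c#2 arrays, against -0.92, -0.75, -0.60 and -0.79 on the shKdm5c#1 arrays and 0.05, 0.06, 0.08 and -0.12 on the control-sh arrays. Lefty1 was thus below control-sh on every array of both Kdm5c hairpins. With median centring 4 of that list were lower and 0 higher. Smad3, a signal transducer of Nodal, stood at -0.27 (SE 0.03) and Furin, a protease that activates it, at -0.28 (SE 0.03). Among 20 BMP genes 6 were lower and 2 higher, led by Id2, an inhibitor of helix-loop-helix factors, at -0.63 (SE 0.03) and by the ligand Bmp4 at -0.39 (SE 0.025). With median centring 3 of those 6 calls stood.

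In the FGF and ERK feedback list, 4 of 17 genes were higher and 4 lower than IB10. Dusp4, a phosphatase induced by ERK signalling, was higher at 0.42 (SE 0.05), Egr1, a zinc finger factor of the immediate early response, at 0.33 (SE 0.03) and Il17rd, an inhibitor of FGF signalling, at 0.26 (SE 0.03). Phlda1, a further target of the pathway, was lower at -0.60 (SE 0.03). Of 23 immediate early genes, 13 were lower and 2 higher, and in control-sh 12 were lower and 4 higher against the same reference. With median centring 6 were lower and 1 higher in the shKdm5c#2 line. Ier3, an early gene of growth factor and stress signals, stood at -0.73, -0.58, -0.52 and -0.71 on the shKdm5c#2 arrays and -0.68, -0.60, -0.45 and -0.70 on the control-sh arrays, which overlapped, and at -0.41 to -0.53 on the shKdm5c#1 arrays.

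Of 43 interferon-response genes measured, 20 were higher in the shKdm5c#2 line than in IB10, 4 were lower and 19 were not called, with a median of 0.073. In control-sh 0 were higher and 31 lower and in shKdm5c#1 1 was higher and 28 lower, so the reference lay between the shKdm5c#2 line and both other lines. Irgm1, an interferon-induced GTPase that acts against intracellular pathogens, stood at 0.36, 0.38, 0.42 and 0.33 on the shKdm5c#2 arrays, against -0.55, -0.52, -0.51 and -0.52 on the shKdm5c#1 arrays and -0.84, -0.80, -0.85 and -0.80 on the control-sh arrays. Its rise over IB10 was 1.295-fold (log2 0.37, SE 0.02, adjusted p = 2.93e-09). Psmb10, a subunit of the immunoproteasome, stood at 0.46 (SE 0.03) and Bst2, a membrane protein that tethers viruses, at 0.38 (SE 0.03). Cxcl10, a chemokine induced by interferon, went against the list and stood at -0.83, -0.94, -0.90 and -0.96 on the shKdm5c#2 arrays, against -0.99 to -1.20 on the shKdm5c#1 arrays and -0.70 to -0.86 on the control-sh arrays. Oas1a, a sensor of double-stranded RNA, was also lower, at -0.31 (SE 0.02).

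With median centring 9 interferon genes were higher and 2 lower. The list median stayed above 0 on each shKdm5c#2 array, from 0.052 to 0.082, and below 0 on each shKdm5c#1 array, from -0.16 to -0.11, and each control-sh array, from -0.28 to -0.22. The interferon element, searched here on both strands as GAAA, any 2 bases and GAAA again, is bound by interferon-regulatory factors. It was present in 20 of the 35 list members with a promoter sequence and in 11 of the 16 such members called higher, against 3.44 percent of all promoters and 3.99 percent of all genes with one. The promoters of Irgm1 and of Gbp2, an interferon-induced guanylate-binding protein at 0.26 that was picked after its values were seen, are shown as examples of higher members with the element, which the capitals mark. In Gbp2 it lies on the other strand with its first base at -59, and Irgm1 has 2 overlapping matches.
Irgm1, chr11:48871371-48871670, minus strand: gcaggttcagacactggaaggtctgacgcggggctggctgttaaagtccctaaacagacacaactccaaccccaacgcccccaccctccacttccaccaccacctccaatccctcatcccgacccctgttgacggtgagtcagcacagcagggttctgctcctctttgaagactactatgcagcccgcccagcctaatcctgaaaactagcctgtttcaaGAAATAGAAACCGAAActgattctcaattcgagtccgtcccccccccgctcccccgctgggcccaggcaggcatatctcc
Gbp2, chr3:142620413-142620712, plus strand: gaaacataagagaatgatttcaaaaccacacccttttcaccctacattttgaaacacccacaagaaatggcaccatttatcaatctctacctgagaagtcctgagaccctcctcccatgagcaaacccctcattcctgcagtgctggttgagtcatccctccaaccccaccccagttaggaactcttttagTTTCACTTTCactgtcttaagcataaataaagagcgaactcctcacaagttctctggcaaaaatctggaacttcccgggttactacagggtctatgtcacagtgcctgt
Interferons themselves were not measured as proteins, and the match is a description of the letters.

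The Atf4 programme, which raises amino acid transport and synthesis when amino acids are scarce, was read on a list of its genes. Of 43 genes measured, 25 were higher than IB10 in the shKdm5c#2 line and 5 lower, with a median of 0.11, and in shKdm5c#1 30 were higher and 4 lower, against 6 higher and 13 lower in control-sh. Atf4 itself, the transcription factor, stood at 0.47, 0.36, 0.59 and 0.43 on the shKdm5c#2 arrays, against 0.72, 0.59, 0.66 and 0.58 on the shKdm5c#1 arrays and -0.43, -0.51, -0.37 and -0.57 on the control-sh arrays. The arrays of both Kdm5c hairpin lines were above IB10 and the control-sh arrays below it. In the shKdm5c#2 line the rise was 1.38-fold (log2 0.46, SE 0.02, adjusted p = 6.38e-10). Psat1, of serine synthesis, stood at 0.44 (SE 0.03), Aldh18a1, of proline synthesis, at 0.40 (SE 0.04) and Gpt2, a mitochondrial alanine aminotransferase, at 0.34 (SE 0.02), all higher. Cth, which makes cysteine, was lower at -0.38 (SE 0.04), as in control-sh (-0.46), while it stood at 0.62 in shKdm5c#1, and its call was lost in 1 setting.

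With median centring 11 Atf4 genes were higher and 0 lower, and with the Cy5 samples alone 10 were higher and 2 lower. Of the 25 higher members, 4 lie on chromosome 8 and 4 on chromosome 19, which are described further below, against 364 and 202 of the 2083 higher genes over the whole array, and the part of the chromosomes in the list's count was not tested. The motif TGATGNAA, an amino acid response element, was present in 14 of the 35 members with a promoter sequence and in 8 of the 19 such members called higher, against 3.97 percent of all promoters and 4.51 percent of all genes with one. Among 22 chaperones and folding genes of the endoplasmic reticulum 2 were higher and 9 lower, and 1 and 1 with median centring. Xbp1, which directs one branch of the unfolded protein response, stood at -0.46, -0.64, -0.65 and -0.49 on the shKdm5c#2 arrays, against -0.43, -0.45, -0.38 and -0.57 on the shKdm5c#1 arrays and 0.02, -0.00, 0.15 and -0.09 on the control-sh arrays. Herpud1, of the degradation machinery of that organelle, was higher than IB10 at 0.43 (SE 0.03) and stood at 0.41 in shKdm5c#1 and 0.45 in control-sh.

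Of 29 p53 targets, 13 were lower in the shKdm5c#2 line, 2 were higher and 14 were not called, with a median of -0.064, against 2 lower and 11 higher in control-sh and 1 lower and 12 higher in shKdm5c#1. With median centring 5 were lower and 1 higher. Plk2, a polo-like kinase, stood at -0.59, -0.60, -0.57 and -0.69 on the shKdm5c#2 arrays, against -0.06, -0.03, -0.07 and -0.11 on the shKdm5c#1 arrays and -0.00, 0.03, -0.09 and -0.07 on the control-sh arrays. Neither other line was called different from IB10 for Plk2, while the shKdm5c#2 line stood at -0.61 (SE 0.03, adjusted p = 5.25e-11). Perp, a membrane protein of p53-dependent apoptosis, stood at -0.57 (SE 0.02), Gadd45a, a stress-induced growth arrest gene, at -0.46 (SE 0.03), Mdm2, the ligase that degrades p53, at -0.39 (SE 0.03) and Trp53inp1, a stress-induced p53 cofactor, at -0.38 (SE 0.03).

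Of 37 histone genes of the replication-dependent clusters, 16 were lower and 2 higher, with a median of -0.063, and 10 were lower and 0 higher with median centring. Hist1h1c, a linker histone gene, stood at -0.93, -0.96, -0.78 and -0.84 on the shKdm5c#2 arrays, against -0.72, -0.87, -0.71 and -0.79 on the shKdm5c#1 arrays and 0.30, 0.17, 0.30 and 0.25 on the control-sh arrays. Both Kdm5c hairpin lines lay below IB10 and control-sh above it. Hist1h2bc, an H2B gene, stood at -0.96, -1.03, -0.91 and -1.40 on the shKdm5c#2 arrays and Hist3h2a, an H2A gene, at -0.84, -0.76, -0.88 and -0.94. Histone genes of these clusters are alike in sequence and their probes may share RNA. Genes of S phase did not follow them, with 12 of 39 higher and 5 lower, nor did genes of G2 and mitosis, with 11 of 39 higher and 3 lower. With median centring these lists had 2 higher and 0 lower and 1 higher and 0 lower, and of the 12 higher S phase members 6 lay on chromosome 8 and 2 on chromosome 19.

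Among genes of glycolysis and hypoxia, 11 of 28 were lower and 4 higher in the shKdm5c#2 line, and 12 lower and 3 higher in control-sh. With median centring 5 were lower and 2 higher in the shKdm5c#2 line. Egln3, an oxygen-sensing prolyl hydroxylase, was lower at -0.55 (SE 0.04) and P4ha2, a collagen prolyl hydroxylase, at -0.52 (SE 0.03), while Pdk1, a kinase that shuts pyruvate out of the mitochondrion, was higher at 0.34 (SE 0.02). Cytosolic ribosomal protein genes were mostly not called, with 3 of 53 higher and 5 lower, though 20 were higher and 4 lower with the Cy5 samples alone. Their list median swung with the dye, at -0.16, 0.14, -0.30 and 0.12 on the shKdm5c#2 arrays A to D. The paralog Rpl39l, given above, was among the 5 lower. Of 36 Hox genes 1 was higher and 1 lower. Of 32 Polycomb components 7 were higher and 10 lower, led by Phf1, which recruits the H3K27 methyltransferase complex, at 0.41 (SE 0.03), and with median centring 2 were higher and 0 lower. Of 14 subunits of H3K4 methyltransferase complexes 6 were higher and 3 lower, with Ash2l, a core subunit, at 0.24 (SE 0.03), and with median centring 1 was higher and 0 lower. The DNA methylation list had 3 higher and 2 lower of 13 and the core pluripotency list 3 and 2 of 12. For cholesterol synthesis it was 3 and 3 of 19. Called were 38.5, 41.7 and 31.6 percent of these lists in that order, against 26.3 percent of all genes. With median centring the lists had 0 and 0, 0 and 0, and 1 and 0.

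**Figure D2:**
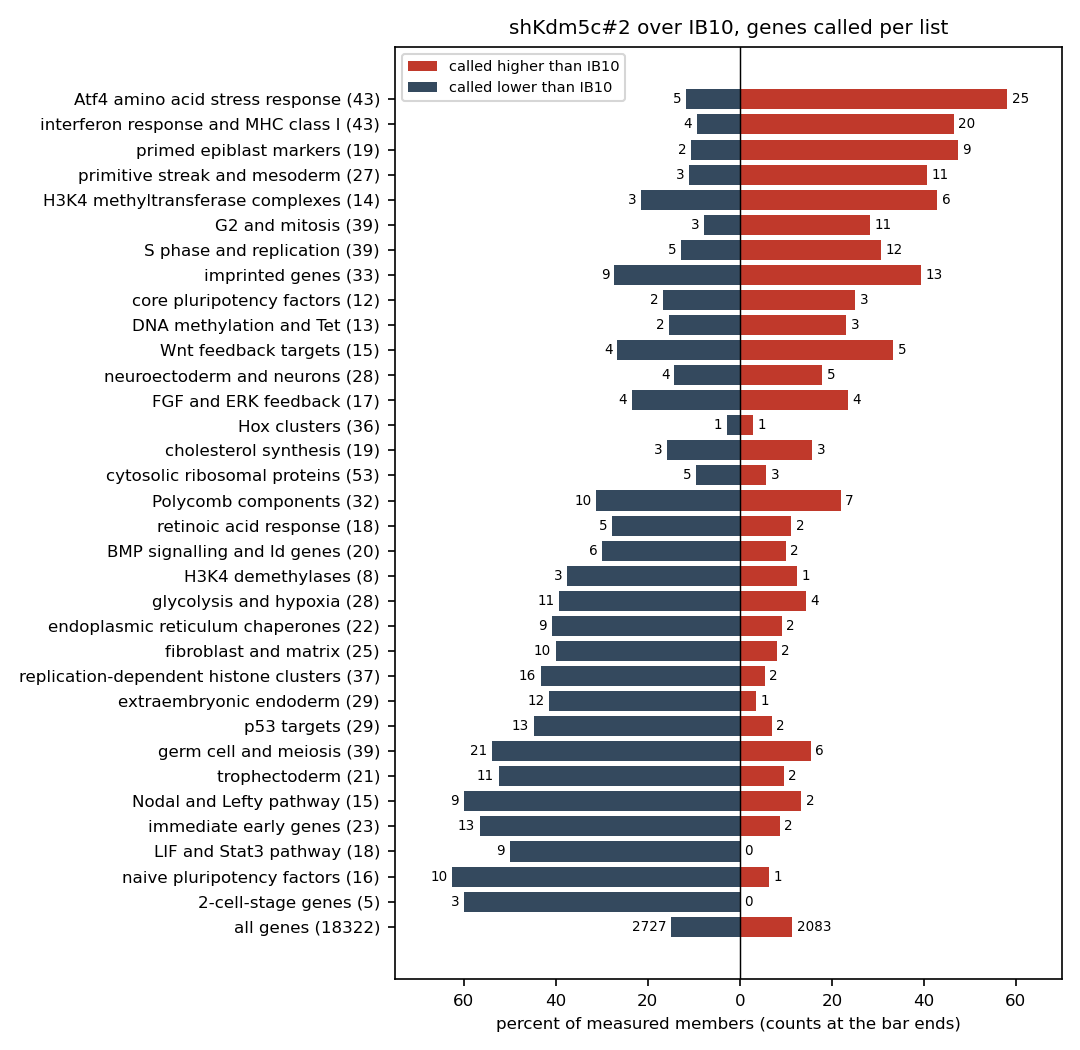
Share of the measured members of each of 33 gene lists called higher (right) or lower (left) than IB10 in the shKdm5c#2 line, in percent, with the counts at the bar ends, the number of measured members in brackets and all genes in the bottom row. More genes are higher than lower in the Atf4, interferon, epiblast and streak lists, and the more are lower in the germ-cell, naive, LIF, Nodal and immediate early lists.

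Markers of other cell types that the cultures could hold were read by list. Of 29 markers of extraembryonic endoderm, 12 were lower and 1 higher, with list medians from -0.12 to -0.023 over the shKdm5c#2 arrays, against 4 lower and 14 higher in control-sh, with list medians from 0.066 to 0.12. With median centring 6 were lower and 1 higher in the shKdm5c#2 line. Srgn, a proteoglycan core protein of parietal endoderm, stood at -0.56, -0.59, -0.66 and -0.61 on the shKdm5c#2 arrays, against -0.17, -0.24, -0.02 and -0.15 on the shKdm5c#1 arrays and 1.71, 1.60, 1.61 and 1.70 on the control-sh arrays. The control-sh line was the one furthest from IB10 for this gene. Sparc, a matrix protein, at -0.45 (SE 0.04) and Col4a2, of basement membranes, at -0.22 (SE 0.02) were lower in the shKdm5c#2 line and stood at 0.11 and 0.25 in control-sh.

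Of 21 trophectoderm markers, 11 were lower and 2 higher in the shKdm5c#2 line and 12 lower and 1 higher in control-sh. Krt7, a keratin of simple epithelia, stood at -0.67, -0.69, -0.69 and -0.71 on the shKdm5c#2 arrays and at -0.65, -0.72, -0.59 and -0.69 on the control-sh arrays, which overlapped, whereas the shKdm5c#1 arrays ran from -0.07 to 0.04. Krt18, the partner keratin of early epithelia, was at -0.46 (SE 0.03) in the shKdm5c#2 line, 0.23 in shKdm5c#1 and -1.32 in control-sh. Of 25 fibroblast and matrix genes 10 were lower and 2 higher, led by Col1a1, by Tagln, an actin-binding protein of smooth muscle, at -0.63 (SE 0.04), and by Col1a2 at -0.34 (SE 0.02). With median centring 5 of them were lower and 0 higher. Neural genes were split, with 5 of 28 higher and 4 lower, and their list medians ran from -0.042 to 0.024 over the shKdm5c#2 arrays. Called were 32.1 percent of them, near the 26.3 percent of all genes. Neurod1, a factor of neuronal differentiation, stood at -1.08, -0.85, -0.94 and -0.93 on the shKdm5c#2 arrays, against -0.43, -0.40, -0.58 and -0.31 on the shKdm5c#1 arrays and -0.03, 0.16, -0.07 and 0.16 on the control-sh arrays, and En1, a homeobox gene of the midbrain, was higher than IB10 at 0.45 (SE 0.04). The part that a changed share of such cells had in the other results was not tested.

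**Figure D3:**
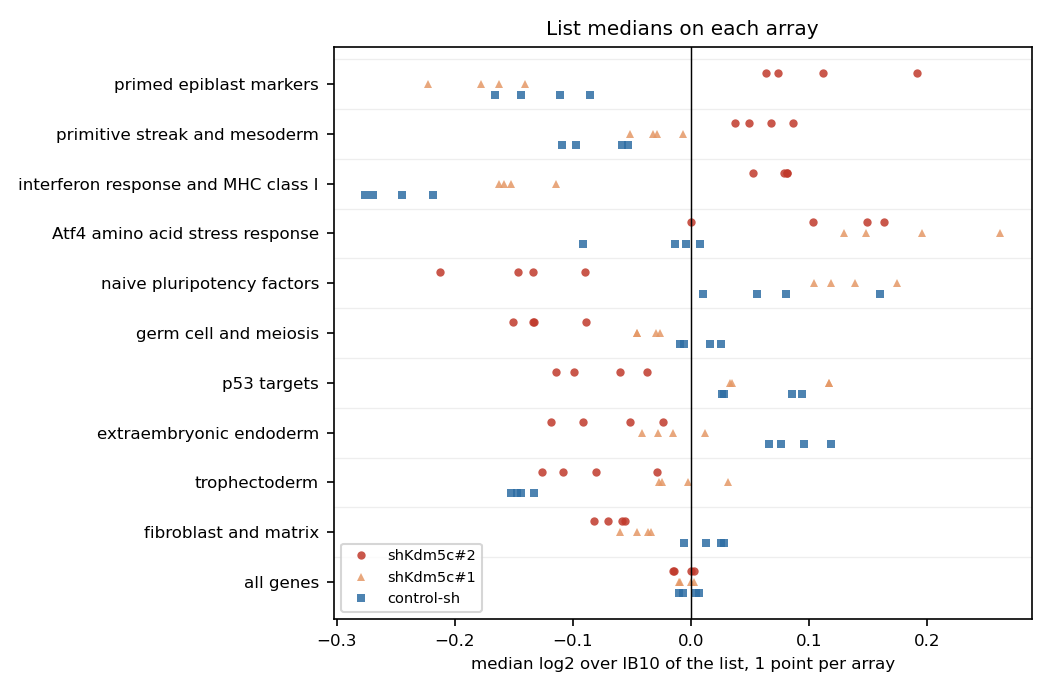
Median log2 over IB10 of 10 gene lists and of all genes on each of the 12 arrays, with shKdm5c#2 as circles, shKdm5c#1 as triangles and control-sh as squares. The epiblast, streak and interferon medians are above 0 on each shKdm5c#2 array and below 0 on each array of both other lines, and the naive list shows the reverse.

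Set beside the control-sh line, the distance of the shKdm5c#2 line from IB10 took several forms. The 4 shKdm5c#2 arrays did not overlap the 4 control-sh arrays for 3101 genes (16.9%), and did not overlap the 4 shKdm5c#1 arrays for 2644 (14.4%). Some genes differed strongly between the lines because control-sh, not shKdm5c#2, was away from IB10. Cldn7, a tight junction protein of epithelia, stood at 0.10, 0.17, -0.02 and 0.00 on the shKdm5c#2 arrays, against -0.37, -0.18, -0.25 and -0.28 on the shKdm5c#1 arrays and -1.11, -1.03, -1.13 and -1.01 on the control-sh arrays. In the shKdm5c#2 line it was at 0.06 over IB10 (95% interval -0.00 to 0.13) and not called, while it differed from control-sh by 1.13 (adjusted p = 1.3e-11). Gbp3, an interferon-induced GTPase, was at 0.06 in the shKdm5c#2 line and -1.06 in control-sh, and Gbx2, a homeobox gene induced by LIF, at 0.03 and 0.99. Cldn6, a claudin of early epithelia, was at -0.03 in the shKdm5c#2 line and -0.93 in control-sh, Galnt3, a glycosyltransferase, at -0.02 and -0.86, and Parp14, a mono-ADP-ribosyltransferase, at 0.09 and -0.72. Dimmer probes in control-sh gave -0.87, called, and -0.06, not called, for Galnt3. For Parp14 they gave -0.13, called, and 0.01, not called.

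Other genes stood at a like distance from IB10 in both lines. For Krt7 the difference between shKdm5c#2 and control-sh was -0.03 (95% interval -0.10 to 0.04), for Ier3 -0.02 (-0.14 to 0.09), for Herpud1 -0.02 (-0.12 to 0.08) and for Irak3 0.08 (-0.02 to 0.18). None of these 4 was called, and the intervals bound how far apart the lines could be. Dusp1, a phosphatase that ends MAP kinase signals, Cyr61, a matrix-associated growth signal, and Crabp2, which carries retinoic acid, were likewise lower than IB10 in the shKdm5c#2 line and not called different from control-sh. A further pattern was opposite departures, in which the shKdm5c#2 line and control-sh were called on different sides of IB10. It was seen for Fgf5, T, Sp5, Cyp26a1 and Irgm1, higher in the shKdm5c#2 line, and for Stra8, Srgn, Ddx4 and Hist1h1c, lower in it. These genes were named for their values in the shKdm5c#2 line. The share of all genes with this pattern was not counted.

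**Figure D4:**
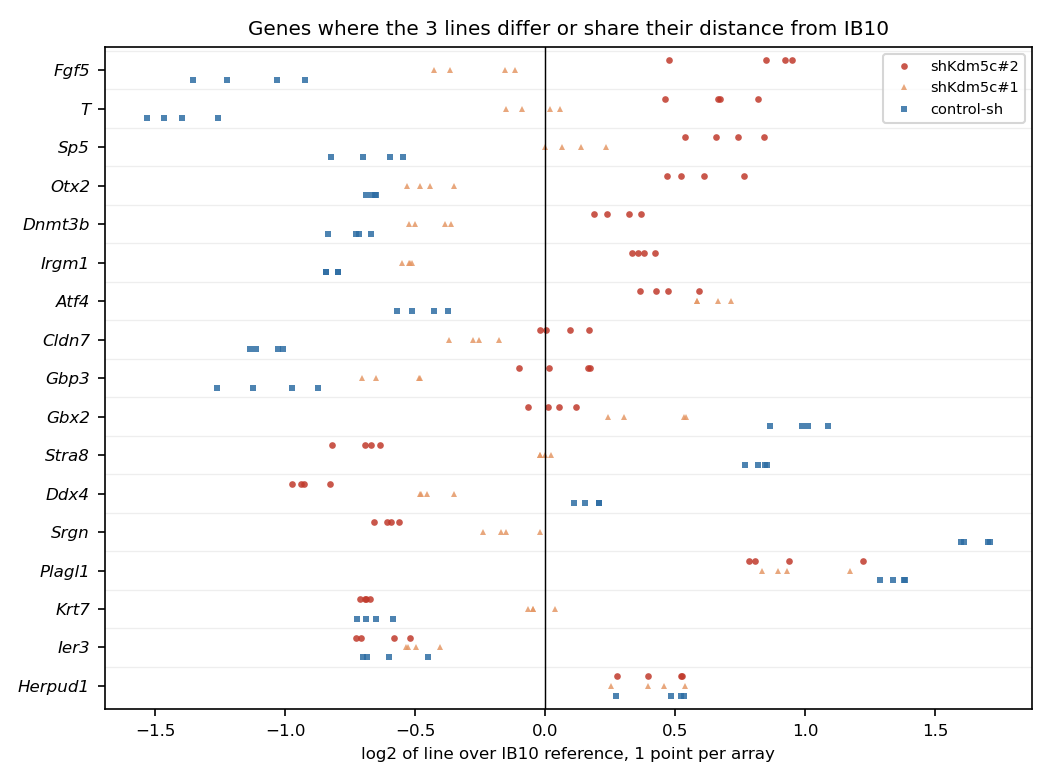
Log2 over IB10 on each array for 17 named genes, with shKdm5c#2 as circles, shKdm5c#1 as triangles and control-sh as squares. The shKdm5c#2 and control-sh points lie on opposite sides of 0 for Fgf5, T and Stra8, the shKdm5c#2 points lie near 0 for Cldn7 and Gbx2, and both sets coincide for Krt7.

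Both Kdm5c hairpins target the same gene, yet the lines differed from each other in 3404 genes, 1560 of them higher (8.51%) and 1844 lower (10.1%) in the shKdm5c#2 line. At 1.5-fold, 112 genes (0.611%) differed, 26 of them higher (0.142%) and 86 lower (0.469%). All 15 of the lowest genes of the shKdm5c#2 line lay below the shKdm5c#1 arrays without overlap, and 11 of the 15 highest lay above them, against 14.4% of all genes that did not overlap in either direction. These genes were chosen for their extreme values in the shKdm5c#2 line, so the count is a description. Mael differed between the hairpin lines by -1.06 (adjusted p = 7.26e-11), Igf2 by -1.09 (adjusted p = 1.15e-11) and Rpl39l by -1.55 (adjusted p = 7.07e-13). Cyp26a1 differed by 1.09 (adjusted p = 3.24e-09) and Otx2 by 1.05 (adjusted p = 8.69e-11). With 1 line per hairpin, a difference between the hairpins and one between the lines cannot be told apart.

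At least 1 dimmer probe was not called for several further genes named above: Id2 (0.03, with another called at -0.55), Tbx3 (-0.01), Kdr (-0.00), Irgm1 (0.01), Phf1 (0.02), Pecam1 (0.04), Smad3 (-0.04), Col1a2 (0.05), P4ha2 (0.03), Esrrb (0.07) and all 3 others of Il17rd (-0.03 to 0.03).

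The genes higher than IB10 were not spread evenly over the chromosomes. Among the 14985 genes above background on every array, 14936 of which had an autosome or the X chromosome, 13.1 percent were higher than IB10 in the shKdm5c#2 line, but 340 of 756 (45.0 percent) were so on chromosome 8 and 191 of 528 (36.2 percent) on chromosome 19. The median over the genes of chromosome 8 was 0.077, 0.077, 0.065 and 0.070 on the shKdm5c#2 arrays, against 0.046, 0.057, 0.041 and 0.055 on the shKdm5c#1 arrays and 0.060, 0.090, 0.059 and 0.072 on the control-sh arrays. All 12 arrays were above 0 for chromosome 8, and shKdm5c#2 and control-sh overlapped, with a median difference between those lines of 8e-04. The median of chromosome 19 was 0.030, 0.060, 0.033 and 0.049 on the shKdm5c#2 arrays, against -0.0038, 0.015, 0.0019 and 0.022 on the shKdm5c#1 arrays and -0.019, 0.0059, -0.012 and -0.0020 on the control-sh arrays. For chromosome 19 the shKdm5c#2 arrays lay above every array of both other lines, and 30.1 percent of its genes were called higher than in control-sh. Medians of the other chromosomes in the shKdm5c#2 line lay between -0.0145 and 0.0038. The highest of these was the X chromosome, where 109 of 499 genes (21.8 percent) were higher and 82 (16.4 percent) lower.

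Among the genes named above as higher in the shKdm5c#2 line, Cyp26a1, Stx3, Psat1 and Aldh18a1 lie on chromosome 19. Psmb10, Bst2, Ash2l, Dusp4, Herpud1 and Gpt2 lie on chromosome 8. Over the line as a whole, the median was 0.0626 for chromosome 8 and 0.0331 for chromosome 19. DNA copy number was not measured, and the part of the chromosome a gene lies on in its value was not tested.

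**Figure D5:**
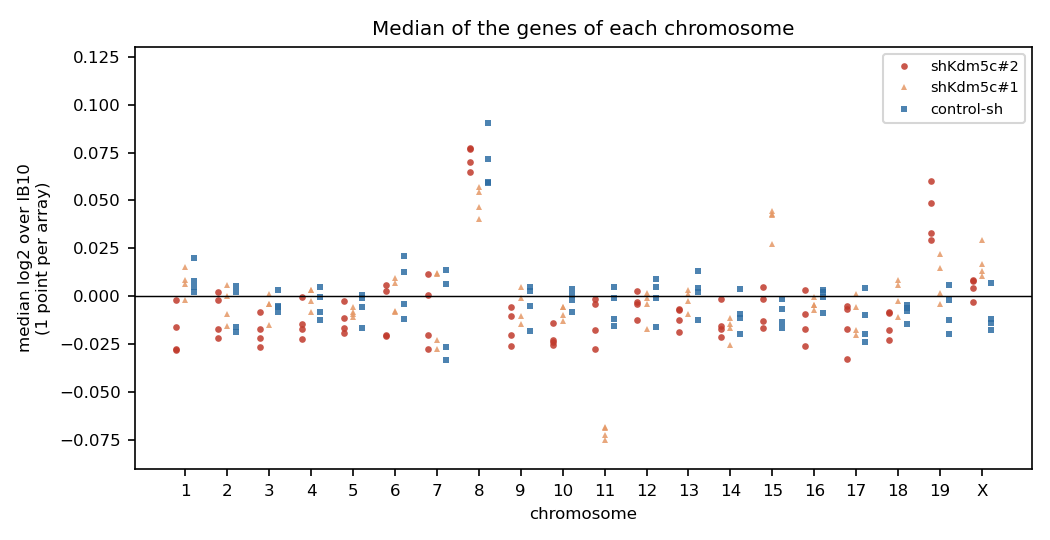
Median log2 over IB10 of the genes of each chromosome, with 1 point per array and shKdm5c#2 as circles, shKdm5c#1 as triangles and control-sh as squares. All 12 arrays lie above 0 for chromosome 8, the 4 shKdm5c#2 arrays lie above both other lines for chromosome 19 and the shKdm5c#1 arrays lie low for chromosome 11 and high for chromosome 15.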

How the data were processed

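Deposited raw files hold the intensity of each spot and its background in both dyes, unnormalized, per the file headers. The authors' table of log2 values was checked to be the normalized Cy5 over Cy3 signal of each array (column medians -0.0026 to 0.0164), by a method not given in the sources used here.

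Spot means were corrected with normexp (offset 50, which shrinks the ratios of dim genes) and loess within arrays in limma 3.58.1 under R 4.3.3, with control spots at weight 0, and turned to sample over reference. The brightest probe stood for each of 18322 symbols, kept as the array spells them, of which 16254 matched RefSeq symbols of GRCm38.p6 and 2020 a unique synonym. Of the gene probes, 34186 had 1 symbol and 6988 none. Per the labels, cultures A to D are separate samples of a line. All 12 arrays entered 1 linear model, in which each line had its own term and the dye another, with 8 residual and 7.64 prior degrees of freedom. Kdm5c hairpin lines and control-sh were compared as differences of terms. A spot counted as above background 2 background SDs over its median, and 4754 of the 4810 genes called met this in both channels on at least 3 of 4 arrays. Figures used matplotlib 3.10.9.

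Genes named are Kdm5c and the histone demethylases listed with it, and the 15 highest and 15 lowest called genes. These highest and lowest genes had 1 sign on all 4 arrays and both channels above background on at least 3. Also named are up to 5 called members per list with the largest values. The last are 6 genes under 0.10 over IB10 that differ most from control-sh, and stem cell markers. Members and the 33 lists were chosen with earlier results of these data known. On simulated data the model found 60 percent of planted log2 differences of 0.15, 96 percent of those of 0.3 and 100 percent of those of 0.6. It made 8 false calls. The simulation held no spread of the reference, so it could not test that limit. Culture letters did not pair the arrays (3 of 12 correlated best with their own letter). Slide and scan are not given in the sources used here, and the highest Cy5 reading, the same within a line, differed between lines (65312, 65310 and 65314 in shKdm5c#2, shKdm5c#1 and control-sh), so scan settings and line cannot be told apart.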

Additional observations from a re-analysis of the deposited data

Results flagged for a closer look

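In 11 of 187 named genes, 1 culture of the shKdm5c#2 line stood apart from the other 3 by Dixon's test at 4 samples. The test was run on array values that still hold the dye effect. Its chance rate of about 1 in 20 may therefore not hold here. All values in this section are log2 over IB10 unless given as a difference. Culture D was lower than the others for Xlr4b (-2.0525 against -1.7706 to -1.7291), for Vim, an intermediate filament protein of mesenchyme (-0.6039 against -0.1278 to -0.0867), and for Perp (-0.6443 against -0.5488 to -0.5355), and higher for Stk31 (-0.7248 against -0.8769 to -0.8631). Culture C was higher for Id4, an inhibitor of helix-loop-helix factors (-0.0575 against -0.3144 to -0.2775), Lama1, a laminin chain (0.0386 against -0.2946 to -0.2391), Tcfap2c, a trophectoderm and germ-cell factor (-0.4148 against -0.4723 to -0.4651), and Trp53inp1 (-0.2223 against -0.4529 to -0.414). Culture B was lower for Ppp4r4 (0.3966 against 0.6565 to 0.6797) and higher for Jun, a component of AP-1 (-0.3361 against -0.4391 to -0.4389), and culture A was lower for 2410004A20Rik (-1.1783 against -1.0707 to -1.06). The calls of Vim and Lama1 were each lost in 2 of the other settings tried, and those of the other 9 genes in none of them. Culture D also has the largest residual SD of the 12 arrays.

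For 19 named genes the shKdm5c#2 line and control-sh were called on opposite sides of IB10 with a called difference between them of at least 1 on the log2 scale. Of these, 11 were higher in the shKdm5c#2 line than in control-sh, by 1.63 for Cyp26a1, 1.93 for Fgf5, 1.36 for Sp5, 2.07 for T, 1.01 for Trh, 1.62 for Ppp4r4, 1.26 for Otx2, 1.01 for Stx3, 1.02 for Dnmt3b, 1.18 for Fst and 1.19 for Irgm1. The other 8 were lower, by -1.46 for Col1a1, -1.31 for Rpl39l, -1.40 for Hist1h2bc, -1.22 for AF067061, -1.53 for Stra8, -1.09 for Ddx4, -2.26 for Srgn and -1.13 for Hist1h1c. The reference is common to both lines, so these signs depend on where IB10 lies between them. All 19 were named for their large values in the shKdm5c#2 line. The share of all genes that meet the same rule was not counted, so the 19 are a description.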

How the results depend on the processing

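The largest shifts came from the dye handling and the normalization. Genes called between shKdm5c#2 and IB10 (4810) numbered 1204 with median centring in place of loess, 2502 with the Cy5 samples alone and 2913 with the 4 shKdm5c#2 arrays alone, a setting that applies to this comparison only. Higher genes numbered 460, 954 and 1228 in these settings and 1369 without a dye term, and lower genes 744, 1548 and 1685. Against control-sh the 4074 calls became 795 with median centring, 1298 with the Cy5 samples alone and 2607 without a dye term. Against shKdm5c#1 the 3404 calls became 474, 741 and 2007 in the same settings and 2256 with the Cy3 samples alone. The calls among genes that stand in at least 1 list, each gene counted once, went from 389 to 157 with median centring and 257 with the Cy5 samples alone. The cause was not tested.

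Leaving out 1 array at a time gave 3810 to 4918 calls over IB10 (1604 to 2026 higher and 2206 to 2892 lower), 3410 to 4317 against control-sh and 2759 to 4012 against shKdm5c#1. It gave 336 to 396 calls among the genes in at least 1 list and -0.6916 to -0.6663 for Kdm5c. Kdm5c stayed called in each setting. With the culture letter as a replicate block the calls were 5181 over IB10, 4520 against control-sh and 3753 against shKdm5c#1, and no named call was lost. Of 173 named calls, 59 were lost with median centring, 33 with the Cy5 samples alone, 12 without a dye term and 1 to 8 without 1 array. In the Cy5 samples alone Mbd4 turned to -0.0087, Dppa5a to 0.275 and Rplp0 to 0.7333, with dye effects of -0.23, 1.16 and 1.82. A block for slide or scan could not be fitted, since neither is given in the sources used here. The use of spot medians and the summary by chromosome were chosen after seeing the data, and spot medians gave 4442 calls. The number of arrays limits the precision, and 56 of the 4810 calls were of genes not above background in both channels on at least 3 of the 4 arrays.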
